A study of Mus musculus with 6 samples.

Results

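The HOX cluster genes are the transcription factor genes named Hoxa, Hoxb, Hoxc or Hoxd followed by a number from 1 to 13. Matching gene symbols by that rule gave 39 genes of the 21671 named genes in the table: 11 Hoxa, 10 Hoxb, 9 Hoxc and 9 Hoxd genes. They were followed in subcutaneous mouse tumours grown from transformed hepatoblasts, the fetal progenitors of hepatocytes and bile duct cells, injected into CD1 nude mice, a strain without a thymus whose skin, vessels, fibroblasts and muscle remain. The injected cells carried TtRMPVIR shST18, a vector from which doxycycline induces a short hairpin RNA against St18, a zinc finger transcription factor gene. RNA from frozen tumour was depleted of ribosomal RNA and sequenced from 3 untreated tumour samples, whose genotype label reads wild type, and from 3 samples taken 4 h after doxycycline by oral gavage, labelled ST18 knockdown. Per the treatment protocol, which is given for all 6 samples, the vector was in the cells of both groups, and there was no group given the drug on cells lacking the hairpin, so effects of drug, of gavage and of the hairpin cannot be told apart. The labels speak of triplicates and do not say outright that the libraries came from separate animals. If they did not, the p-values reflect the spread among libraries alone, which may be technical.

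HOX proteins bind DNA through a homeodomain and give cells their address along the head-to-tail axis. The genes lie in 4 clusters in which the order on the chromosome follows the order of expression along the body: low numbers (anterior) are expressed from the hindbrain downwards and high numbers (posterior) towards the tail and limb tips. Genes with the same number in different clusters are paralogues that arose by duplication of an ancestral cluster. In adult tissues many cell types, fibroblasts and smooth muscle among them, keep a HOX code that reflects where in the body they came from, and Polycomb and Trithorax proteins hold the clusters silent or active.

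Libraries held 12090309 to 16169043 counts in named genes, and the HOX genes together took 180 to 256 CPM, the usual unit of counts scaled to library size. St18, the targeted gene, had 12, 23 and 19 counts in the untreated libraries 1, 2 and 3 and 34, 12 and 61 in the doxycycline libraries 1, 2 and 3, so a fall of the target was not seen in the libraries labelled ST18 knockdown (log2 fold change 1.03, edgeR quasi-likelihood test, adjusted p = 0.298). Without doxycycline replicate 2 this became 1.45 (adjusted p = 0.0386). Of 18 hepatoblast, hepatocyte and biliary markers 10 passed the filter on low counts. Krt8, Krt18 and Sox9 were at 43.5, 67.3 and 31.2 CPM in the untreated mean, while the hepatocyte markers Alb, Ttr and Hnf4a were at 0.115, 0.0225 and 0.444 CPM. Markers of other tissues moved between the groups. In edgeR 10 of 15 skeletal muscle, 4 of 16 fibroblast and mural, 3 of 12 macrophage and 2 of 13 endothelial markers rose, against 2.84% of all genes tested, and 1 of 9 neutrophil markers fell, against 2.18%. The numbers of these markers called were 13, 7, 6, 2 and 4 in DESeq2 and 1, 4, 2, 2 and 0 in limma-voom. The methods also differed over all genes. DESeq2 called 877 higher and 790 lower and limma-voom 261 and 288, against 421 and 323 in edgeR. Of the hepatoblast and biliary, 3 keratinocyte and 1 adipocyte markers tested none passed in edgeR, DESeq2 or limma-voom. In edgeR 1 hepatoblast and biliary marker had an unadjusted p under 0.05, against 23.9% of all genes tested. Untreated replicate 2 and doxycycline replicate 1 stood apart in keratinocyte and skin markers, which summed to 101.7 and 129.6 CPM there and to 7.97 to 10.9 CPM in the other 4 libraries. Krt5, a basal keratinocyte keratin, had 410 and 299 counts in those 2 libraries and 0 to 3 in the others. In bulk tissue fewer cells of a type and less RNA per cell cannot be told apart.

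Expression was concentrated in the Hoxb cluster and in the front part of the Hoxa cluster. The summed level of the 10 Hoxb genes was 150.3 ± 2.94 CPM in untreated tumours (SD, n = 3), or 71.1% of all HOX counts on that scale. The 11 Hoxa genes summed to 56.6 ± 4.75 CPM (26.8%), the 9 Hoxd genes to 2.64 ± 0.135 CPM (1.25%) and the 9 Hoxc genes to 1.94 ± 0.200 CPM (0.919%). By position, 44.3% of the untreated HOX level came from paralogue groups 1 to 3, 43.4% from groups 4 to 8 and 12.3% from groups 9 to 13.

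Levels of single genes were compared per length, as CPM per kilobase of exon in the GENCODE M21 annotation. Hoxb7, a central gene of its cluster, had the highest untreated level of the 39, at 15 ± 1.12 CPM per kilobase (SD, n = 3), though per coding length Hoxb4 stood before it. Hoxb4, which is known for its role in blood stem cells, followed at 10.5 ± 0.865 and Hoxb3 at 9.56 ± 0.849. Next came Hoxb9 at 6.82 ± 0.243, Hoxb2, a hindbrain gene, at 6.04 ± 0.960 and Hoxb6 at 5.67 ± 1.12 CPM per kilobase. The ranges of mean ± SD overlapped for Hoxb4 and Hoxb3, for Hoxb9 and Hoxb2, and for Hoxb2 and Hoxb6. Hoxb7 lay clear of Hoxb4 per exonic length. These genes were measured in the same libraries, and within each untreated library Hoxb4 was above Hoxb3. Differences within libraries were not tested. Per coding length Hoxb4 and Hoxb7 did not differ beyond their spread, at 35.9 ± 2.96 and 35.6 ± 2.66 CPM per kilobase. Against the 14809 genes that passed the filter on low counts, Hoxb7 stood at the 61.8th percentile of the length-scaled level, Hoxb4 at the 50.1st and Hoxb9 at the 39.2nd. Hoxb5 and Hoxb8, which lie between strongly expressed neighbours, were at 1.5 ± 0.311 and 2.02 ± 0.203 CPM per kilobase. At the ends of the cluster, Hoxb1 was at 0.127 ± 0.00990 and Hoxb13, which is set apart from the rest of the cluster, had 3 counts over the 6 libraries.

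**Figure D1:**
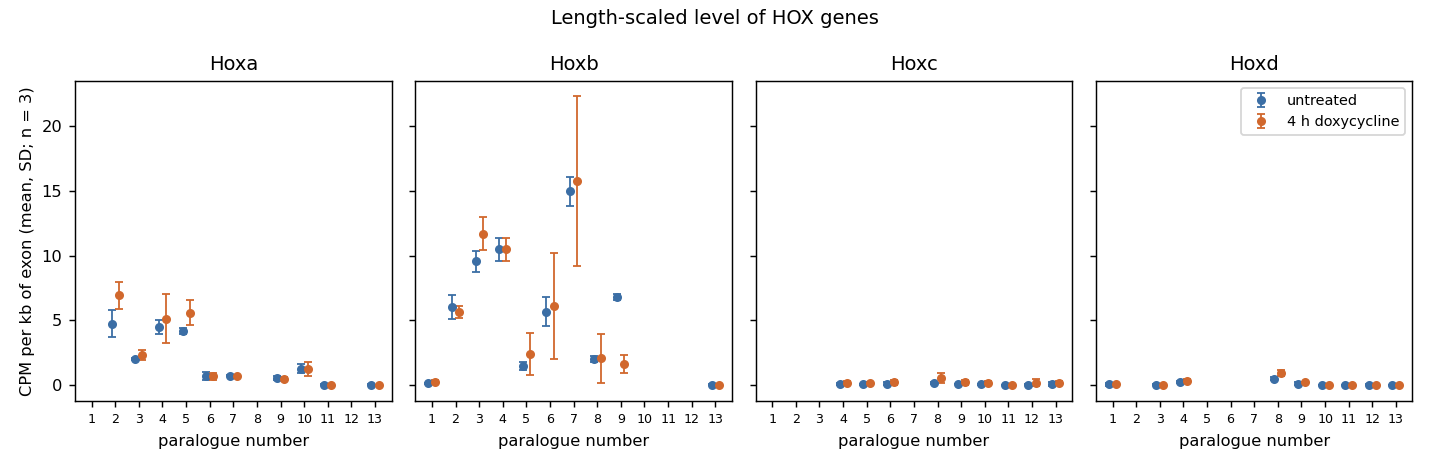
Length-scaled level of 38 HOX genes (y axis, CPM per kilobase of exon) against its paralogue number (x axis), one panel per cluster. Points are means and bars SDs over the 3 libraries of each group. Hoxb7 is the highest gene in both groups, Hoxc and Hoxd genes lie near 0, and Hoxb9 goes from 6.82 untreated to 1.60 after doxycycline.

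The Hoxa cluster was lower from Hoxa6 on than before it, without a steady fall from gene to gene. Hoxa2, Hoxa4 and Hoxa5 were at 4.76 ± 1.03, 4.52 ± 0.544 and 4.21 ± 0.230 CPM per kilobase, levels that did not differ beyond their spread. Hoxa3, whose annotated exons are the longest of the cluster, was at 2.02 ± 0.0452. Per coding length it was at 9.13 ± 0.205 CPM per kilobase. Hoxa2, Hoxa4 and Hoxa5 were at 7.57 ± 1.64, 8.43 ± 1.01 and 9.75 ± 0.532 on that scale. From Hoxa6 to Hoxa10, levels lay between 0.548 (Hoxa9) and 1.28 (Hoxa10) CPM per kilobase of exon. Hoxa11 and Hoxa13, which pattern the limb and the urogenital tract, had 7 and 3 counts over the 6 libraries.

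Hoxc and Hoxd genes were close to the limit of detection, with Hoxd8 at 0.488 ± 0.126 CPM per kilobase and Hoxd4 at 0.229 ± 0.0913 as the highest of the Hoxd genes and Hoxc8 at 0.200 ± 0.0746 as the highest of the Hoxc genes in untreated tumours. In all, 19 HOX genes did not pass the filter on low counts. These were Hoxa11, Hoxa13, Hoxb1, Hoxb13, every Hoxc gene but Hoxc8, and every Hoxd gene but Hoxd4 and Hoxd8, with totals from 2 (Hoxd11 and Hoxd13) to 40 counts (Hoxb1). Hoxc11 had no untreated count, and Hoxa13 and Hoxb13 had none after doxycycline. A count of 0 over the 3 libraries of a group allows a level of up to 0.0680 CPM in the untreated and 0.0709 CPM in the doxycycline group, for counting error only.

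The comparison of the groups asks whether HOX expression differed 4 h after doxycycline. Hoxb9 fell, and no HOX gene rose. Of the 20 HOX genes tested, 1 was lower (5%) in edgeR's quasi-likelihood test at an adjusted p under 0.05, against 2.18% of all genes tested. None was higher, against 2.84%, and 5.02% of all genes passed in either direction. DESeq2 and limma-voom also gave 1 lower and 0 higher. Unadjusted p-values under 0.05 were reached by 3 of the 20 (15%: Hoxb9, Hoxc8 and Hoxd8), against 23.9% of all genes. The groups did not overlap for 6 of the 20 (30%), against 29.6%, so both shares were near or below the background. Log2 fold changes were positive for 12 and negative for 8 of the 20, with a median of 0.09, against 0.01 for all genes.

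**Figure D2:**
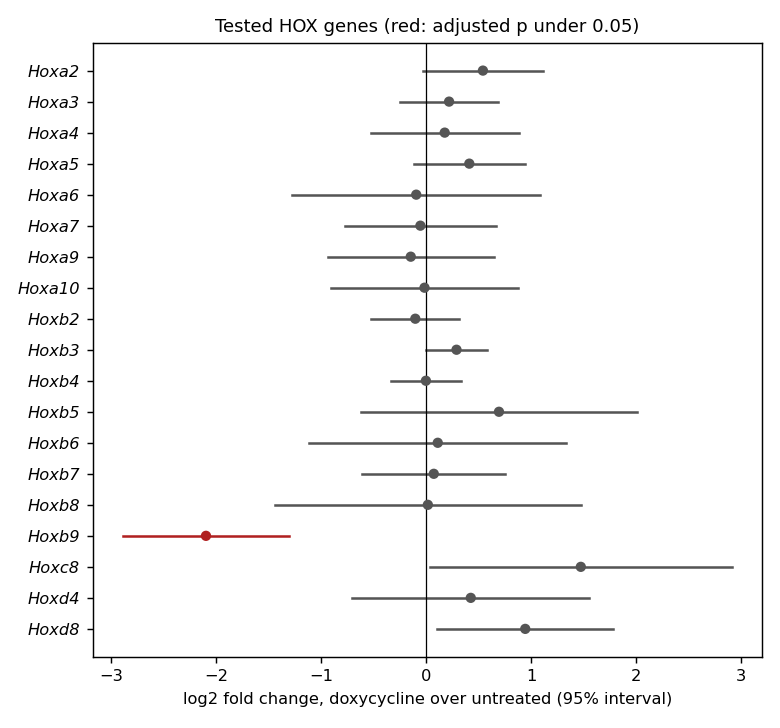
Log2 fold change of 19 of the 20 tested HOX genes (x axis, doxycycline over untreated, with 95% intervals from edgeR). Hoxb9, in red, is the gene with an adjusted p under 0.05, and its interval runs from -2.88 to -1.30. The intervals of Hoxb5, Hoxb6 and Hoxb8 are wide.

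Hoxb9 encodes a posterior HOX factor that helps to pattern the rib cage and is used in mammary gland development. It had 230, 290 and 252 counts in untreated libraries 1, 2 and 3, and 65, 30 and 77 in doxycycline libraries 1, 2 and 3. Scaled to library size these were 17.4, 18.2 and 17.0 CPM and 5.45, 2.06 and 4.83 CPM. The untreated values lay close together, and each doxycycline value was below each untreated value. The level went from 17.6 ± 0.626 to 4.11 ± 1.80 CPM (SD, n = 3 each), -2.09 as a log2 fold change (SE 0.35, 95% interval -2.88 to -1.30, edgeR adjusted p = 0.0198). The fold change stayed between -1.78 and -2.34 whichever library was left out. The adjusted p rose above 0.05 without untreated replicates 1, 2 and 3 (0.103, 0.0785 and 0.109) and without doxycycline replicate 3 (0.0506). Without the libraries high in skin markers, untreated replicate 2 or doxycycline replicate 1, it was at -2.09 and -2.34 (edgeR adjusted p = 0.0785 and 0.0314).

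Genes next to Hoxb9 did not follow it in every library. Hoxb8, which adjoins it, had 67, 79 and 88 untreated counts and 129, 16 and 70 after doxycycline. The ratio of Hoxb8 to Hoxb9 counts was 0.291, 0.272 and 0.349 in the untreated libraries and 1.98, 0.533 and 0.909 in the doxycycline libraries. Hoxb7 counts stood to Hoxb9 counts as 1.43, 1.18 and 1.35 to 1 before and 6.09, 6.43 and 5.55 to 1 after doxycycline. Neither ratio overlapped between the groups, and the Hoxb7 ratio was alike in the 3 doxycycline libraries although their Hoxb7 levels differed. Both ratios are taken over Hoxb9, which was picked because it was called lower. Their lack of overlap therefore largely restates its fall and is no separate result.

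As a share of all Hoxb counts, Hoxb9 went from 11.7% ± 0.193 to 2.64% ± 0.698 (SD, n = 3 each). An exact two-sided permutation test over libraries gave p = 0.1, the smallest that 3 against 3 libraries allow, and 0.333 after Benjamini-Hochberg adjustment over the 10 Hoxb genes compared. The shares of Hoxb1 and Hoxb3 did not overlap between the groups either (exact p = 0.1 each). Hoxb1 went from 0.197% to 0.418% and Hoxb3 from 27% to 33.9%. Hoxb1 had few counts, 4, 5 and 4 untreated and 8, 6 and 13 after doxycycline. Lack of overlap was common, since 29.6% of all genes tested did not overlap in CPM, though CPM is not a share. These shares are not independent, since all are taken from 1 total.

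**Figure D3:**
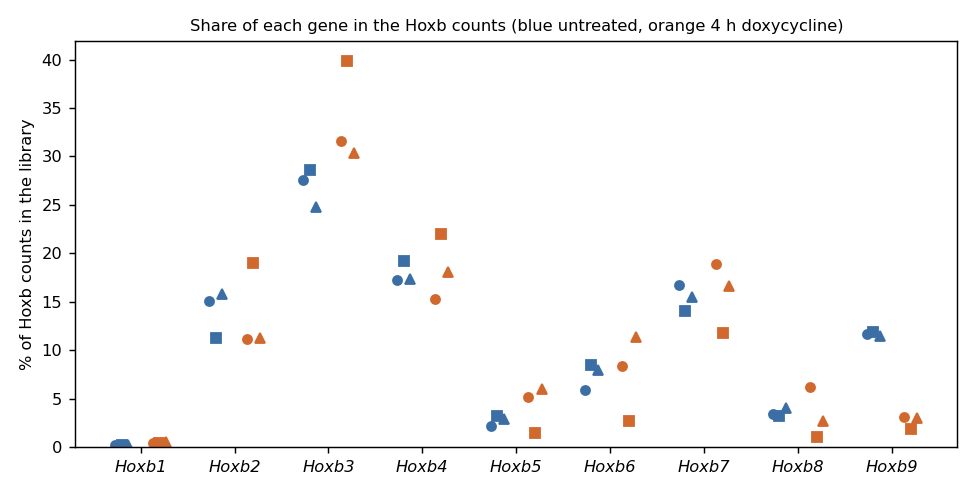
Percent of a library's Hoxb counts (y axis) taken by each gene from Hoxb1 to Hoxb9 (x axis), with blue points for untreated and orange points for doxycycline libraries, and circles, squares and triangles for replicates 1, 2 and 3. Hoxb9 lies between 11.5% and 11.9% in the untreated and between 1.84% and 3.10% in the doxycycline libraries.

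The other genes of paralogue group 9 were not called, and differences in fold change between genes were not tested. Hoxa9 was at 4.01, 2.33 and 2.83 CPM untreated and at 3.44, 2.54 and 2.32 CPM after doxycycline (log2 fold change -0.14, edgeR adjusted p = 0.843), with overlapping groups. Hoxc9 had 4 counts in each untreated library and 6, 2 and 17 after doxycycline, and Hoxd9 had 0, 6 and 6 and then 6, 6 and 9, too few to be tested. The homeobox, the 180 bases that encode the homeodomain, is shown for Hoxb9 and Hoxc9 because every HOX gene carries one. Sequences are from GENCODE M21 transcripts (GRCm38), 5′ to 3′, and capitals mark bases of Hoxc9 that differ from Hoxb9.
Hoxb9: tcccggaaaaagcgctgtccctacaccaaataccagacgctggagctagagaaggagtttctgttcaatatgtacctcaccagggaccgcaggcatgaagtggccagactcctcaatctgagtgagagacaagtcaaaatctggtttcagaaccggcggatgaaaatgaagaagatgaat
Hoxc9: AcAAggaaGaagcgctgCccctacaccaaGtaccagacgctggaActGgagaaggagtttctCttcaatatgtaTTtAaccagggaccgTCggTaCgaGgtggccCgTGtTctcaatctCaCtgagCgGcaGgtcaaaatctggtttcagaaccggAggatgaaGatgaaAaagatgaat
Hoxc9 differs from Hoxb9 at 29 of the 180 bases, an identity of 83.9%. The longest stretch shared without a mismatch was 24 bases within the homeobox and 50 bases between their longest annotated transcripts. For comparison, the Hoxb8 homeobox differs from that of Hoxb9 at 64 bases (64.4% identity).

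Within the doxycycline group, Hoxb5 to Hoxb9 spread more widely than Hoxb2, Hoxb3 and Hoxb4. The highest doxycycline library exceeded the lowest 1.18, 1.24 and 1.19 times for Hoxb2, Hoxb3 and Hoxb4, and 2.50 to 9.84 times for Hoxb5 to Hoxb9. Hoxb5 to Hoxb9 were lowest in doxycycline replicate 2, as were Hoxb1, Hoxb3 and Hoxb4 by a smaller margin. Summed over Hoxb1 to Hoxb4, the level was 89.6, 91.0 and 86.1 CPM in untreated libraries 1, 2 and 3 and 102.6, 91.0 and 97.2 CPM in doxycycline libraries 1, 2 and 3. Summed over Hoxb5 to Hoxb8, it was 42.0, 44.4 and 45.0 CPM and then 67.8, 19.0 and 59.3 CPM. On this second sum doxycycline replicates 1 and 3 lay above every untreated library and replicate 2 below every one. The boundary between these sums was chosen after the values were seen, so no test is given.

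The members show the same in single values, except that Hoxb8 in doxycycline replicate 3 also lay below every untreated library. Hoxb5, expressed in gut and lung mesenchyme during development, was at 3.25, 4.97 and 4.32 CPM untreated and at 9.14, 1.58 and 9.66 CPM after doxycycline, a log2 fold change of 0.70 (95% interval -0.62 to 2.01, edgeR adjusted p = 0.509). Hoxb6 was at 8.70, 12.9 and 11.7 CPM and then at 14.7, 3.02 and 18.4 CPM. For Hoxb7 the values were 25.0, 21.5 and 23.0 CPM and then 33.2, 13.3 and 26.8 CPM. Hoxb8, a regulator of myeloid progenitors, was at 5.07, 4.97 and 5.94 CPM and then at 10.8, 1.10 and 4.39 CPM. In each of these 4 genes doxycycline replicate 2 was below the 3 untreated libraries. The highest doxycycline library exceeded the lowest 6.11 times for Hoxb5, 6.10 times for Hoxb6, 2.50 times for Hoxb7 and 9.84 times for Hoxb8, against 1.16 to 1.53 times among the untreated libraries.

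**Figure D4:**
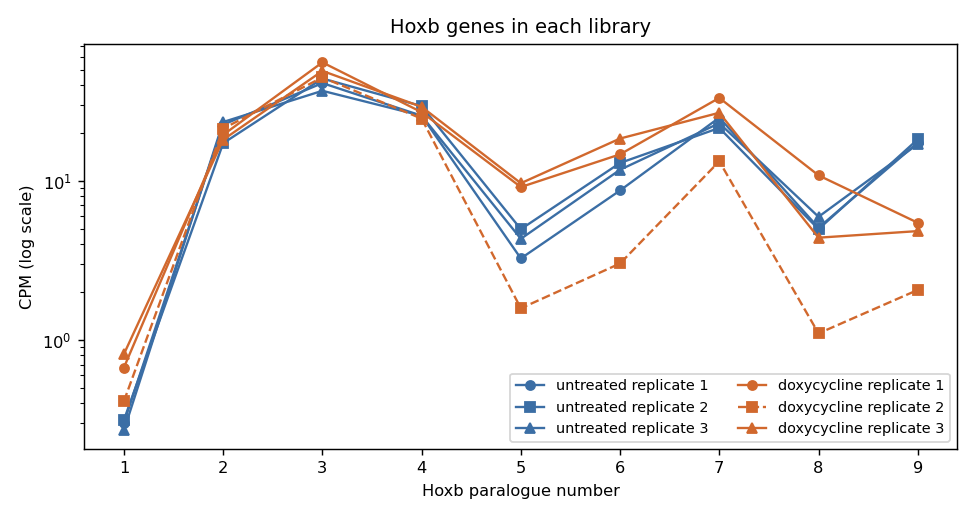
CPM (y axis, log scale) of Hoxb1 to Hoxb9 (x axis) in each library, blue for untreated and orange for doxycycline, with doxycycline replicate 2 dashed. The lines run together from Hoxb2 to Hoxb4. From Hoxb5 on doxycycline replicate 2 lies below the others, and at Hoxb9 all 3 doxycycline libraries lie below the untreated ones.

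Without doxycycline replicate 2, Hoxb5 was higher (log2 fold change 1.16, edgeR adjusted p = 0.0266), as was Hoxc8 (1.91, adjusted p = 0.0330), while Hoxb9 stayed lower (-1.78, adjusted p = 0.00147). In that fit 8.18% of all genes tested were higher and 5.69% lower. Hoxb6 (0.57, adjusted p = 0.132), Hoxb7 (0.37, adjusted p = 0.146) and Hoxb8 (0.50, adjusted p = 0.398) did not pass. Skeletal muscle markers summed to 470, 752 and 118 CPM in doxycycline libraries 1, 2 and 3, against 37.9 to 68.0 CPM untreated, so replicate 2 was the highest and replicate 3 lay well below the other two. The biliary keratin gene Krt19 was at 6.88, 2.89 and 3.78 CPM untreated and at 15.2, 1.37 and 29.0 CPM after doxycycline, with replicate 2 the lowest of the 6 libraries. Krt19 is a single member of the 18 hepatoblast and biliary markers. Together these summed to 228.8, 136.9 and 157.9 CPM untreated and to 210.5, 146.7 and 233 CPM after doxycycline. On that sum replicate 2 lay within the untreated range. The part of these shifts in the Hoxb values was not tested.

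Genes of the Hoxa cluster did not all share the low values of doxycycline replicate 2. Hoxa5, which directs lung and neck development, was at 8.39, 7.61 and 7.70 CPM untreated and at 9.31, 12.6 and 9.66 CPM after doxycycline, with its highest value in replicate 2. The groups did not overlap, but the log2 fold change of 0.41 did not pass (SE 0.23, 95% interval -0.11 to 0.94, edgeR adjusted p = 0.319). Hoxa2, a hindbrain and neural crest gene, was at 8.62, 10.2 and 6.55 CPM and then at 13.5, 13.3 and 10.2 CPM (log2 fold change 0.54, adjusted p = 0.236). Hoxa3, needed for thymus and parathyroid, was at 11.9, 12.4 and 12.0 CPM and then at 16.8, 12.6 and 13.1 CPM (0.22, adjusted p = 0.560). Hoxa4 was at 8.17, 6.98 and 6.48 CPM and then at 11.7, 6.05 and 6.84 CPM (0.18, adjusted p = 0.779). Its value in doxycycline replicate 2 was below that of every other library. Hoxa6, Hoxa7, Hoxa9 and Hoxa10 had log2 fold changes between -0.14 and -0.01 and overlapping groups.

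The 3 strongly expressed anterior Hoxb genes were steadier. Hoxb3 was at 41.1, 44.0 and 36.8 CPM untreated and at 55.5, 44.7 and 49.0 CPM after doxycycline, without overlap (log2 fold change 0.29, SE 0.13, edgeR adjusted p = 0.210). Of its annotated exonic bases 52.9% overlap the antisense gene Hoxb3os, as do 27.3% of those of Hoxb2, and the library kit does not mark strand. Hoxb4 was at 25.6, 29.5 and 25.6 CPM and then at 27, 24.6 and 29.2 CPM, a log2 fold change of -0.0004 (95% interval -0.33 to 0.33, adjusted p = 0.999). Hoxb2 was at 22.5, 17.2 and 23.4 CPM and then at 19.4, 21.3 and 18.1 CPM (-0.10, adjusted p = 0.788).

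The promoters of Hoxb8, Hoxb4 and Hoxa5 are shown because these genes had their lowest doxycycline value, a value near the untreated ones and their highest doxycycline value in replicate 2. For Hoxb4 the value in replicate 2 was also its lowest doxycycline value. Each sequence is from RefSeq and covers 250 bases before to 50 after the annotated start, 5′ to 3′ on the gene's strand. Capitals mark matches, on either strand, to TGATTNAT (a PBX-HOX site), TAATTA (a homeodomain core) or TTTATNG (a core favoured by CDX and posterior HOX proteins).
Hoxb8 promoter, GRCm38.p6 chr11:96281655-96281954, plus strand: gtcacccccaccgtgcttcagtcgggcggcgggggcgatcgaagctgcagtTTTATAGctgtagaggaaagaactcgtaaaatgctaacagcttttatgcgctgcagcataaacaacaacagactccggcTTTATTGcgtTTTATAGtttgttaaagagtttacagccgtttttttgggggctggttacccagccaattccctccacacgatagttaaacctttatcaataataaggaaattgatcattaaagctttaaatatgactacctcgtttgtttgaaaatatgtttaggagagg
Hoxb4 promoter, GRCm38.p6 chr11:96318017-96318316, plus strand: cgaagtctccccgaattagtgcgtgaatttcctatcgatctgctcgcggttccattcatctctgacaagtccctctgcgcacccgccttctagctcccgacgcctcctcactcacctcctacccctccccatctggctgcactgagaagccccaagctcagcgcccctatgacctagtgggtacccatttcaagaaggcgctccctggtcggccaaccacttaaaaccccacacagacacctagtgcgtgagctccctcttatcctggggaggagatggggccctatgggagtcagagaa
Hoxa5 promoter, GRCm38.p6 chr6:52204538-52204837, minus strand: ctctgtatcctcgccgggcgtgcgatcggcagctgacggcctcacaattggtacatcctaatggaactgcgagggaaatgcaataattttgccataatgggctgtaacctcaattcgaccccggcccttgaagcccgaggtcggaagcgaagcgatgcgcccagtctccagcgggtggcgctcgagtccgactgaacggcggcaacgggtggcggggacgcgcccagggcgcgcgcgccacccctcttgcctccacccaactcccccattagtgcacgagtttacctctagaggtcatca
The Hoxb8 window holds 3 matches to TTTATNG and none to the other motifs, and its GC content is 42.3%. No match to any of the 3 motifs lies in the Hoxb4 window (58% GC) or the Hoxa5 window (61.7% GC). Of 32851 promoter windows of the same length in the table, 10.9% hold TTTATNG, 5.29% TAATTA and 3.22% TGATTNAT. The table has 24 windows for 22 of the 39 HOX genes, and each motif is found in 2 of the 24. A match is a description of these letters and not a measured site.

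Hoxc and Hoxd sums were higher after doxycycline, from few counts. The Hoxd genes summed to 2.65, 2.77 and 2.50 CPM in untreated libraries 1, 2 and 3 and to 4.19, 3.85 and 5.08 CPM in doxycycline libraries 1, 2 and 3, without overlap (log2 ratio of the means 0.73). These sums rest on 116 untreated and 187 doxycycline counts. The largest part in each library came from Hoxd8, at 1.74, 1.13 and 1.15 CPM and then at 2.18, 2.27 and 3.26 CPM. Its log2 fold change of 0.95 did not pass (SE 0.37, 95% interval 0.11 to 1.78, edgeR adjusted p = 0.165). Hoxd4 overlapped between the groups (0.43, adjusted p = 0.652).

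The Hoxc genes summed to 1.74, 2.14 and 1.96 CPM and then to 5.53, 1.44 and 6.52 CPM, on 86 and 191 counts. Doxycycline replicates 1 and 3 were above and replicate 2 below the untreated libraries, as for Hoxb5 to Hoxb7. Hoxc8, a thoracic gene that is also expressed in trunk fibroblasts, was at 0.605, 0.754 and 0.338 CPM and then at 2.52, 0.481 and 1.82 CPM (1.48 on the log2 scale, SE 0.63, edgeR adjusted p = 0.200). Fibroblast and mural markers summed to 1527 to 1562 CPM untreated and to 2263, 1997 and 2209 CPM in doxycycline libraries 1, 2 and 3, and 4 of 16 rose (median log2 fold change 0.69). Among these Lum, a small proteoglycan, went from 7.79 ± 0.244 to 37.5 ± 4.01 CPM. The defining fibroblast markers were not at 0 in any library, and their part in the Hoxc and Hoxd values was not tested.

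Sums over whole clusters differed little for the abundant clusters. Hoxa went from 56.6 ± 4.75 to 64.8 ± 8.08 CPM (log2 ratio 0.19) and Hoxb from 150.3 ± 2.94 to 149.7 ± 33.5 CPM (log2 ratio -0.01). The doxycycline SD of Hoxb was set by replicate 2, at 112.0 CPM against 175.9 and 161.3 CPM in replicates 1 and 3. Paralogue groups 9 to 13 together went from 26.0 ± 1.71 to 13.2 ± 4.34 CPM (log2 ratio -0.98), of which Hoxb9 made up 17.6 and 4.11 CPM. Without the Hoxb genes, groups 9 to 13 of Hoxa were at 7.37 ± 1.94 and 7 ± 2.29 CPM.

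**Figure D5:**
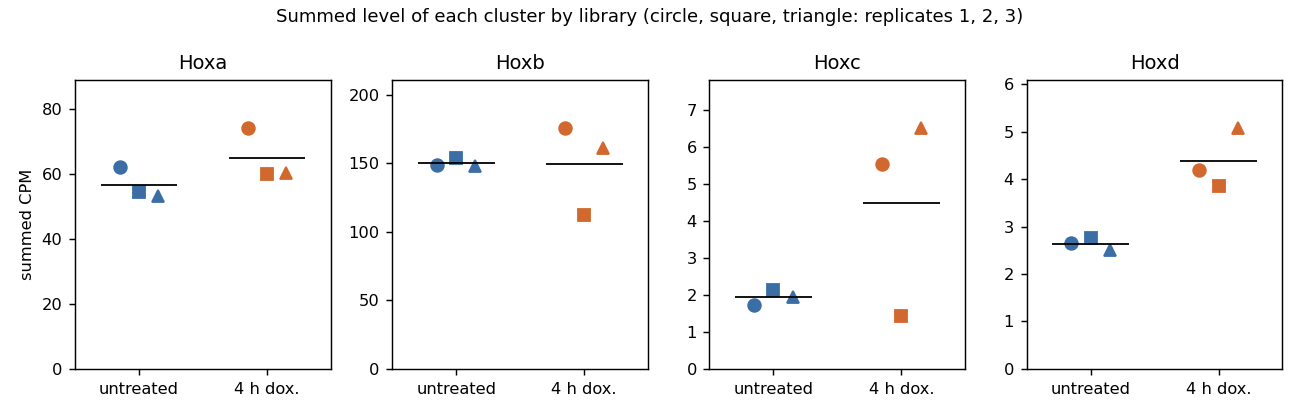
Summed CPM of each cluster (y axis from 0, one scale per panel) in the untreated and doxycycline libraries, with lines at the group means. Hoxd values do not overlap, at 2.50 to 2.77 and 3.85 to 5.08 CPM. Doxycycline replicate 2, the square, is the lowest point of its group in each panel, though in Hoxa it lies level with replicate 3.

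HOX proteins gain much of their DNA specificity from PBX, MEIS and PKNOX partners, homeodomain proteins of the TALE class. Pknox2 went from 3.56, 2.83 and 2.70 to 10.1, 3.78 and 9.16 CPM and did not pass (1.34, adjusted p = 0.0913). Pbx3 (0.33, adjusted p = 0.111), Pknox1 (-0.35, adjusted p = 0.113), Pbx2 (0.20, adjusted p = 0.254), Meis2 (0.23, adjusted p = 0.298) and Meis1 (0.19, adjusted p = 0.383) did not pass. Pbx4 (0.18) and Meis3 (0.07) did not pass either.

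Chromatin regulators of the clusters showed small differences. Of 29 Polycomb genes none passed in edgeR, in either direction (median log2 fold change -0.03), against 5.02% of all genes tested. None passed in DESeq2 or limma-voom either. In edgeR 6 of the 29 had an unadjusted p under 0.05, against 23.9% of all genes tested. Small p-values were those of Rnf2, a ubiquitin ligase subunit (0.34, adjusted p = 0.0767), Cbx2 (-0.31, adjusted p = 0.142) and Phc3 (0.31, adjusted p = 0.158). Of 19 genes for Trithorax proteins, their partners and the H3K27 demethylases, 1 was higher and none lower (median -0.15), against 2.84% and 2.18% of all genes tested. Kdm6a, a demethylase that removes the Polycomb mark, went from 130 ± 7.95 to 167 ± 9.48 CPM (0.36, adjusted p = 0.0426). The other H3K27 demethylase gene, Kdm6b, was at -0.58 (adjusted p = 0.107), while Mllt3 (0.34, adjusted p = 0.0540) and Mllt1 (-0.33, adjusted p = 0.0566) also did not pass. With offsets for GC content and length, Kdm6a was at 0.18 (adjusted p = 0.250) and no longer passed.

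Retinoic acid is a classical inducer of anterior HOX genes, and CDX proteins of central and posterior ones. Of 15 tested retinoic acid pathway genes 1 was higher and 0 lower (median log2 fold change 0.03), against 2.84% higher and 2.18% lower among all genes. Aldh1a1, which makes retinoic acid from retinaldehyde, went from 0.529, 1.13 and 0.608 to 2.77, 3.37 and 3.07 CPM (2, SE 0.40, edgeR adjusted p = 0.0321). Cyp26b1, which degrades retinoic acid (1.91, adjusted p = 0.0678), and Stra6, a retinol importer (-1.23, adjusted p = 0.0778) did not pass. None of the 6 CDX and ParaHox genes passed the filter, and Cdx2 and Pdx1 had 1 count each over the 6 libraries.

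Genes around and between the HOX genes were examined as well. Of 12 tested neighbours of the clusters 1 was higher and 0 lower (median log2 fold change 0.09), again beside 2.84% and 2.18% of all genes. Calcoco1, near the Hoxc cluster, went from 77.7 ± 0.173 to 106 ± 10.8 CPM (0.45, edgeR adjusted p = 0.0393), and Hnrnpa3 (0.24, adjusted p = 0.0767), Skap2 (0.31, adjusted p = 0.101) and Skap1 (0.74, adjusted p = 0.382) did not pass. Of 9 noncoding genes of the clusters in the table, Hoxaas3 was tested, with 8, 14 and 15 counts and then 15, 17 and 19 (0.52, adjusted p = 0.457). The calls of Kdm6a, Aldh1a1 and Calcoco1 were lost without any 1 untreated library and without doxycycline replicates 1 or 3. In limma-voom, Aldh1a1 passed of these 3.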

How the data were processed

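RNA was measured in 3 untreated and 3 doxycycline tumour samples, grouped by title and treatment label. The deposited table holds raw read counts per gene, which the authors made with TopHat2 2.0.8, TopHat and HTSeq (build mm9), per the submitters' processing notes. The annotation, the use of strand and the handling of multiply mapped reads were not given in the sources used here. The 90 rows without a gene name (0.0361% to 0.0402% of counts) were left out.

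Counts were tested in R 4.3.3 with edgeR 4.0.16 (filterByExpr, TMM factors 0.985 to 1.02, robust glmQLFit and glmQLFTest, two-sided, Benjamini-Hochberg over the 14809 genes tested, threshold 0.05). The SE was taken as log2 fold change over root F, and positive values mean higher after doxycycline. CPM uses TMM-scaled totals. Lengths are merged exons of GENCODE M21 (GRCm38), not the authors' mm9 annotation, so exon models may differ. The test was run on simulated data for the comparison, 14809 genes with 200 changed 4-fold, of which 96% were recovered.

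Alternatives were RLE scaling, no low-count filter, DESeq2 1.42.0, limma-voom (limma 3.58.1), no robust estimation, a replicate block, leaving out each library, other CPM scalings and coding length. Offsets for GC content and length, with a pseudocount of 1, were added after seeing the data. HOX genes with an adjusted p under 0.05 and up to 4 of the highest per cluster were to be given in full, and from each other list up to 4 genes with the smallest p, with the TALE genes tested; some items under this rule are not reported here. Members and lists were chosen with earlier results of these data known. Per cent values of Hoxb shares are computed from counts.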

Additional observations from a re-analysis of the deposited data

How the results depend on the processing

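Of the HOX results, the fall of Hoxb9 kept its direction in every fit run (log2 fold change -2.34 to -1.78 with 1 library left out) and its side of the threshold in the fits on all 6 libraries: RLE, no filter, DESeq2, limma-voom, no robust estimation, the replicate block and GC and length offsets (edgeR, DESeq2 or limma adjusted p from 3.32e-08 to 0.0299). With 1 library left out, HOX genes higher ranged from 0 to 2 and HOX genes lower from 0 to 1. Genes higher ranged from 11 to 1244 and genes lower from 12 to 866, and members of the pathway lists past the threshold from 0 to 14. DESeq2 gave 877 genes higher, 790 lower and 11 pathway members, and limma-voom 261 higher and 1 pathway member, against 421, 323 and 4 in edgeR. The cause was not tested.

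Several uncalled log2 fold changes near 0 changed sign when 1 library was left out: Hoxa4 (-0.163 to 0.351), Hoxa6 (-0.416 to 0.0836), Hoxa7 (-0.162 to 0.0183), Hoxa9 (-0.328 to 0.0947), Hoxa10 (-0.418 to 0.236), Hoxb4 (-0.0629 to 0.0577), Hoxb6 (-0.341 to 0.569), Hoxb7 (-0.21 to 0.368) and Hoxb8 (-0.95 to 0.501). With GC and length offsets Hoxa10 was at 0.0175, Hoxa6 at 0.00463 and Hoxb4 at 0.0576. In limma-voom Hoxb6 was at -0.247, Hoxb7 at -0.0391 and Hoxb8 at -0.549. The median of the tested HOX genes lay between -0.0342 and 0.323 with 1 library left out. Cluster sums kept their direction, except Hoxb, whose log2 ratio lay between -0.138 and 0.165. Per coding length, Hoxb held 73.8% of the untreated length-scaled HOX level, against 69.3% per exonic length, and Hoxb4 stood before Hoxb7.

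Libraries with the same replicate number did not deviate together (correlations of their deviations from the group means -0.00121, -0.0886 and -0.00122), and not every library correlated best with its own number. With the replicate number as a block, 215 genes were higher and 179 lower, 0 pathway members passed, and Hoxb6 was at -0.139, Hoxb7 at -0.0144 and Hoxb8 at -0.417. The 19 HOX genes that were not tested had at most 40 counts each over the 6 libraries; without the filter on low counts, 0 HOX genes were higher and 1 lower.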
